A study of Populus tremula x Populus alba with 14 samples.

Results

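Outer bark was compared with inner bark in young stems of a poplar hybrid, Populus tremula x Populus alba. The comparison rests on 6 of the 14 libraries of the study, chosen by their labels: 3 of young outer bark and 3 of young inner bark, paired by the stem numbers 1, 2 and 4 in their titles. The stems measured 4 to 5.5 mm across and came from wild type trees of 1 clone, INRA 717-1B4, grown in a greenhouse and kept outdoors only in the growing season. Outer bark was labelled phellem with phellogen, and inner bark secondary phloem with vascular meristem. The other 8 libraries, 4 of each layer, came from old stems of 6 to 8 mm of the same clone and are used here as separate libraries in which the young results can be read.

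Bark grows from a pair of meristems. The phellogen, or cork cambium, divides outwards into phellem, the cork, whose cells deposit suberin in their walls and die as they mature, so that cork replaces the epidermis as the stem's barrier to water and pathogens. Further in, the vascular cambium forms secondary phloem towards the outside, the tissue that carries sugars from the leaves, and wood towards the inside. The comparison of the layers asks which transcripts mark the cork side and which the phloem side of bark while the stem is still thin.

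Each library is a mixture of cell types, so more cells of a type and more RNA per cell cannot be told apart. The deposited files give each gene an identifier and no name, the symbol column repeating the identifier in 100% of rows. Known genes of cork, phloem or cambium could therefore not be looked up, and the labelled tissues could not be checked against their defining markers. Genes are described below in groups set by direction, size and level of the layer difference, and 2 identifiers per direction are printed.

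Young libraries held between 13286574 and 15884964 counts and between 31669 and 32847 detected genes. Of 41335 genes in the table, 27673 had enough counts to be tested. Levels are given as CPM, counts of a gene per TMM-scaled library size, a total adjusted for differences in RNA composition. In a principal component analysis of the 6 young libraries, component 1 held 50.9% of the variance and set both libraries of stem 1, at -115.9 and -63.95, apart from the other 4, at -3.795 to 102.6. Component 2 held 30.1% and put the outer library of every stem below its inner library. Component 1 did so too, with outer against inner at 11.92 and 102.6 in stem 2 and at -3.795 and 69.19 in stem 4. The layer difference was thus spread over both components. Among old stems, the libraries of number 1 also stood apart, with count differences from the other libraries of their layer at least 92.6 times sampling noise (chi-square over its degrees of freedom), against at most 36.2 times among the others. Results are therefore also given without stem 1.

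In young stems, 5148 genes were higher in outer bark, 18.6% of those tested, and 4071 were higher in inner bark, 14.7% (edgeR quasi-likelihood test with stems as blocks, adjusted p below 0.05). Most differences were modest. The median outer-higher gene differed by 1.82-fold and the median inner-higher gene by 1.60-fold. Large differences were more numerous on the cork side: 652 genes were at least 4-fold higher in outer bark and 139 at least 4-fold higher in inner bark, and 151 and 24 of these reached at least 8-fold. Stem 1 alone had the reverse order, as shown with the single stems below. All 3 stems had the direction of the call for 5119 of the outer-higher (99.4%) and 4035 of the inner-higher genes (99.1%), which follows largely from calling the genes in these same stems. Of all genes tested, 33.6% were higher in outer bark in all 3 stems and 30.7% higher in inner bark. Over all genes tested, every outer value lay above every inner value for 13.7% and below for 12.2%, and among the called genes this was so for 57.0% of the outer-higher and 59.0% of the inner-higher ones. The block compares the layers within a stem, so a gene could be called while its layers overlapped across stems.

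The number of calls depended on the pairing and on single stems. With stems left unpaired, 90 genes (0.325%) were called outer-higher and 17 (0.0614%) inner-higher, and 3595 had an unadjusted p below 0.05. Without stem 2 the paired counts were 2874 and 1913, without stem 4 they were 2855 and 1706, and without stem 1 they were 4359 and 4261. Which layer had more calls turned with the scaling, since outer-higher genes were 55.8% of calls under TMM factors and 46.9% under RLE factors, so a surplus of calls in either layer is not shown. No gene called here was called in the opposite direction under RLE factors, DESeq2, limma, the other count filters, the young libraries alone or without any young stem (0 genes in each). All of these settings called 2327 of the outer-higher genes (45.2%) and 1409 of the inner-higher genes (34.6%) in the same direction.

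**Figure D1:**
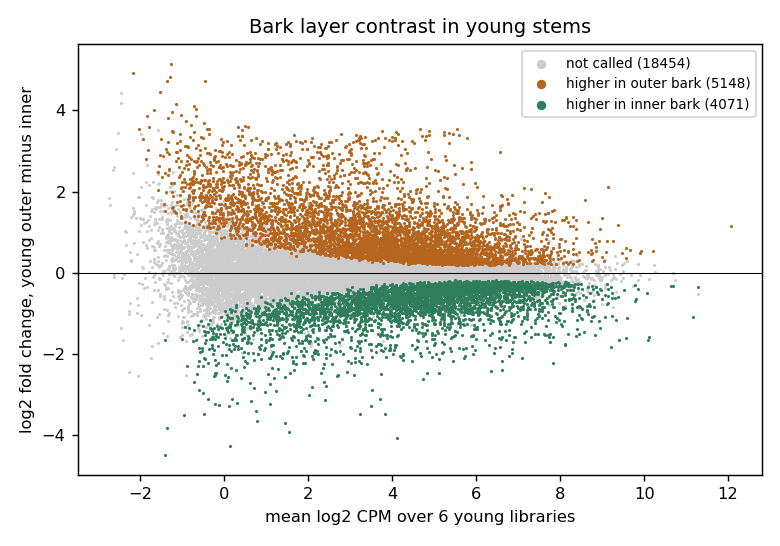
Each point is a gene, with its mean log2 CPM over the 6 young libraries on the horizontal axis and its fitted log2 fold change of outer minus inner bark on the vertical axis. Large differences are more numerous among outer-higher genes (brown, 5148 in all, 652 at least 4-fold) than among inner-higher genes (green, 4071 in all, 139 at least 4-fold), an order that was reversed in stem 1 alone.

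The genes at least 4-fold higher in outer bark were mostly of low level. Their median was 5.31, 5.10 and 6.04 CPM in the outer libraries of stems 1, 2 and 4. In the inner libraries it was 1.52, 0.305 and 0.695 CPM, so inner stem 1 had the highest level of the 3. The 139 genes at least 4-fold higher in inner bark had medians of 7.53, 6.24 and 5.33 CPM in the inner and 0.944, 1.33 and 1.26 CPM in the outer libraries of stems 1, 2 and 4. Here the 3 outer libraries lay close together. The layers did not overlap in these medians for either group, which follows in part from how the groups were chosen.

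Calls were spread unevenly over the levels of expression. Among 2062 genes with a mean above 100 CPM, 31.7% were higher in inner and 16.1% in outer bark. Among 14341 genes between 10 and 100 CPM these shares were 16.7% and 20.0%, and among 8961 genes between 1 and 10 CPM they were 10.7% and 18.8%. Thus the most abundant transcripts were called more often on the phloem side, and those between 1 and 10 CPM more often on the cork side. Both held under RLE factors, with 39.4% and 13.7% above 100 CPM and 12.5% and 17.3% between 1 and 10 CPM, and both held without stem 1, but the order between 10 and 100 CPM turned, to 21.6% inner and 17.0% outer under RLE factors and 18.4% and 16.3% without stem 1. Among the genes above 100 CPM only 7 were at least 4-fold higher in outer and 6 in inner bark, so most differences among abundant transcripts were smaller.

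The outer-higher genes took 22.4%, 24.3% and 23.6% of the total count in the outer libraries of stems 1, 2 and 4, and 14.9%, 12.3% and 12.5% in their inner libraries. The inner-higher genes took 28.6%, 31.0% and 30.1% of the counts in inner and 19.8%, 19.7% and 19.8% in outer bark. The called genes thus held a large part of the counts of both layers, but the lists were long, at 18.6% and 14.7% of the genes tested. The genes at least 4-fold apart held a small part of the counts. The outer group took 1.55% ± 0.189 of them in outer bark and the inner group 0.381% ± 0.0573 in inner bark (SD, n = 3 each). These shares describe the libraries that chose the genes.

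**Figure D2:**
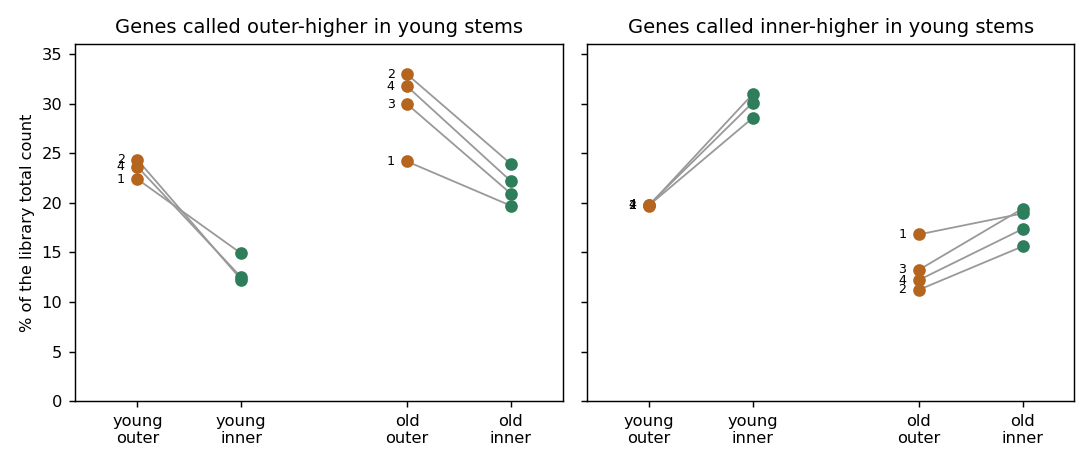
The percent of each library's total count in the genes called outer-higher (left) and inner-higher (right) in young stems is shown for each library, with lines joining the layers of a stem number and numbers beside the outer libraries. Young outer libraries hold 22.4% to 24.3% of their counts in outer-higher genes, and in old stems, whose layer difference was not used to call them, every outer library again lies above its inner library on the left and below it on the right.

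No gene had at least 10 counts in every outer library and 0 in every inner library, or the reverse (0 genes in each direction). A weaker rule, meant to find transcripts nearly absent from 1 layer, took 40 genes with at least 5 CPM in all 3 outer libraries and less than 1 CPM in at least 2 inner libraries. All 40 were below 1 CPM in inner stems 2 and 4, at medians of 0.228 and 0.541 CPM, and none of them was below 1 CPM in inner stem 1, where they ranged from 1.61 to 9.44 CPM with a median of 3.88 CPM. Their median outer level was 14, 8.25 and 8.72 CPM in stems 1, 2 and 4. In old stems 39 of the 40 were also called higher in outer bark. There 91.1% of the genes at least 4-fold higher in young outer bark and 18.8% of all genes tested were called so. On the phloem side 1 gene met the same rule.

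Among genes that averaged log2 CPM 3 or more, with no overlap between the layers and the same direction in every stem, 1740 were outer-higher and 1844 inner-higher, and the 2 with the largest fold change in each direction are described in full. Potri.009G069100 was at 193.9, 164.9 and 153.3 CPM in the outer libraries of stems 1, 2 and 4 and at 57.1, 4.26 and 8.11 CPM in their inner libraries. All outer values lay above all inner values, but the ratio within a stem was 3.40 in stem 1 against 38.7 in stem 2 and 18.9 in stem 4. The fitted log2 fold change was 3.54 ± 0.647 (SE; edgeR adjusted p = 0.00479). In old stems 2, 3 and 4 it was at 82.2, 111.5 and 122.7 CPM in outer and 2.53, 8.62 and 13.2 CPM in inner bark, while both layers of old stem 1 were low, at 1.67 and 0.753 CPM.

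Potri.007G113900 was at 162.6, 78.3 and 78.8 CPM in young outer bark of stems 1, 2 and 4 and at 37.1, 1.22 and 5.02 CPM in young inner bark. It repeated the pattern of the first gene, with a ratio of 4.38 in stem 1 and of 64.3 and 15.7 in stems 2 and 4. Its log2 fold change was 3.53 ± 0.588 (SE; edgeR adjusted p = 0.00321). In old outer stems 1 to 4 it was at 0.697, 22.4, 84.7 and 62.0 CPM, and in old inner stems at 0.167, 0.690, 4.46 and 8.97 CPM, so that old stem 1 was again low in both layers. Both cork-side genes lost their call in a paired fit of the young libraries alone, with edgeR adjusted p of 0.0685 and 0.0576, and with stems unpaired, with 0.369 and 0.452.

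Potri.016G104300 was at 127.5, 99.5 and 24.9 CPM in young inner bark of stems 1, 2 and 4 and at 4.48, 6.66 and 2.64 CPM in young outer bark. The layers did not overlap, and the largest ratio, 28.4, was that of stem 1. The log2 fold change was -4.07 ± 0.352 (SE; edgeR adjusted p = 0.000328). Old inner stems 1 to 4 had 6.95, 51.5, 31.4 and 79.1 CPM and old outer stems 0.557, 0.780, 0.609 and 4.11 CPM, so the layers did not overlap at that age either.

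Potri.016G006900 was at 49.7, 30.7 and 18.7 CPM in young inner and at 2.95, 3.55 and 2.01 CPM in young outer bark of stems 1, 2 and 4. Its ratio of inner to outer bark was 16.8 in stem 1, 8.65 in stem 2 and 9.29 in stem 4. The log2 fold change was -3.49 ± 0.266 (SE; edgeR adjusted p = 0.000214). Levels were lower in old stems, at 0.251, 13.3, 6.27 and 4.69 CPM in inner and 0.139, 0.425, 0.487 and 0.360 CPM in outer stems 1 to 4, where inner stem 1 fell within the outer range. These values are near the floor, with 3 counts in old inner stem 1 and 2, 6, 8 and 5 counts in old outer stems 1 to 4. With stems unpaired the edgeR adjusted p of the inner genes was 0.0828 and 0.0933.

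The layer difference of none of these 4 genes was shown to change with age: the edgeR adjusted p of the difference was 0.928 and 0.941 for the outer and 0.376 and 0.558 for the inner genes, in the order above. In the authors' deposited table for young stems, in which negative values mean higher in outer bark, the log2 fold changes of Potri.009G069100 and Potri.007G113900 were -2.869 and -2.868, with edgeR adjusted p of 0.0074 and 0.026. The authors' deposited table gave Potri.016G104300 and Potri.016G006900 log2 fold changes of 4.191 and 3.541, with edgeR adjusted p of 3.1e-08 and 9.5e-09. With the sign turned, these sizes lay close to an unpaired fit of the young libraries here. It gave 2.87, 2.86, -4.2 and -3.54, outer minus inner, in the order above. Its edgeR adjusted p of 0.196, 0.26, 0.0618 and 0.0521 called none of the 4 genes. The authors' deposited table holds 877 outer-higher and 370 inner-higher edgeR calls, and 463 and 243 DESeq calls. Of the 1205 genes tested here that the authors' deposited table called with edgeR, 99.8% were called here in the same direction, and they were 13.0% of the calls made here. Over all genes tested, 18.6% were called outer-higher and 14.7% inner-higher here, and 98.7% had the same sign of fold change in both analyses. Both used the same counts, so this overlap is no independent support.

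**Figure D3:**
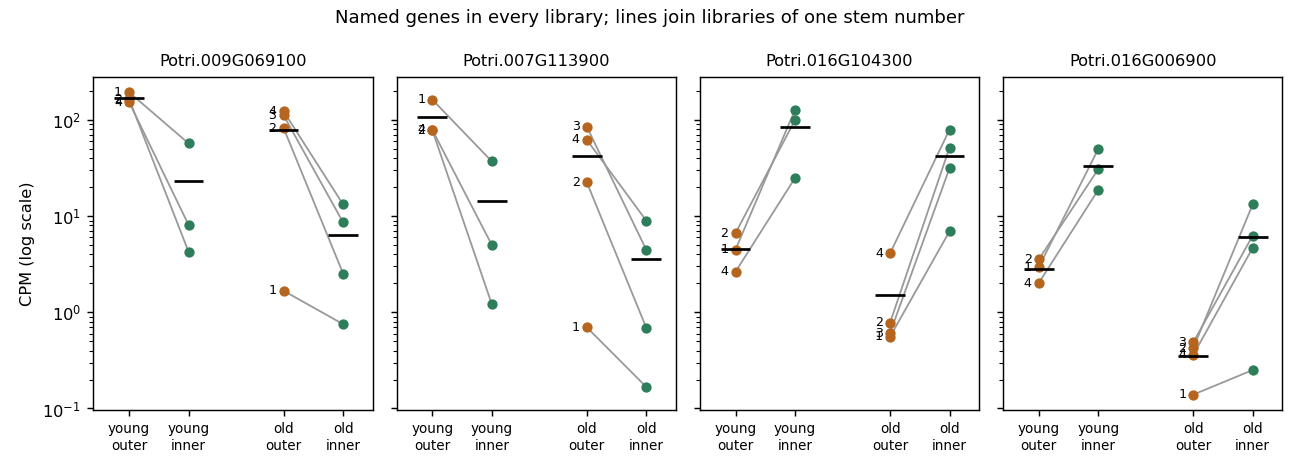
CPM of the 4 named genes in all 14 libraries is plotted on a log scale, with lines joining the layers of a stem number, numbers beside the outer libraries and black bars at group means. Lines of the 2 genes on the left fall from outer to inner bark in every stem, least steeply in young stem 1 among the young stems, and lines of the 2 on the right rise in every stem.

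Because the same libraries chose and measured the groups above, each young stem was also read with genes called without it. Genes called higher in outer bark without stem 1 had the same direction in stem 1 for 96.1% of 4312, without stem 2 for 99.3% of 2864 and without stem 4 for 99.5% of 2848, where 53.6%, 49.3% and 51.0% of all genes were higher in the outer library of the stem left out. For inner-higher genes the shares were 90.3% of 4236, 99.2% of 1907 and 98.9% of 1701, against 46.4%, 50.5% and 49.0% of all genes. The direction of the layer difference was thus shared by the stems.

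Its size was smaller in stem 1. Over all genes called without the stem that was read, the median log2 difference of outer-higher genes was 0.636 in stem 1, 1.25 in stem 2 and 1.12 in stem 4, and that of inner-higher genes was -0.368, -0.817 and -0.815. The lists differ between stems, since each left out another stem. Among large differences this held on the cork side. Genes at least 4-fold higher in outer bark in the other stems had a median log2 difference of 3.65 in stem 2 and 2.76 in stem 4 but 1.30 in stem 1. The inner library of stem 1 held these genes at a median of 38% of its outer level (quartiles 28.0% and 48.4%), against 3.81% in stem 2 (quartiles 1.81% and 8.76%) and 12.3% in stem 4 (quartiles 7.18% and 19.8%). Among large differences on the phloem side stem 1 was not the smallest. Genes at least 4-fold higher in inner bark in the other stems were in the outer library of stem 1 at 18.5% of the inner level (quartiles 10.0% and 30.3%), against 24.9% in stem 2 (quartiles 17.9% and 29.4%) and 28.3% in stem 4 (quartiles 21.0% and 42.8%). Over all genes, 123 were at least 4-fold higher in the outer library of stem 1, against 1087 in stem 2 and 777 in stem 4, while 246, 155 and 91 were at least 4-fold higher in the inner library. With stem 1 of both ages left out, the number at least 4-fold higher in outer bark was 1039 and in inner bark 120. Why the stems differed in this was not tested.

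**Figure D4:**
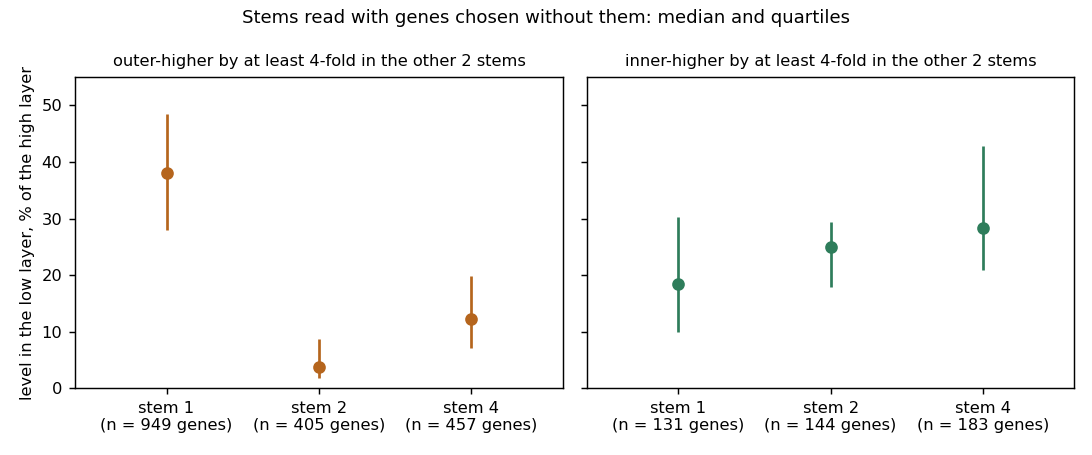
Points are the median, and lines the quartiles, of the level in the low layer as a percent of the high layer, in each young stem, over genes at least 4-fold apart when the other 2 stems were used. On the cork side (left) stem 1 lies at 38%, above stems 2 and 4 at 3.81% and 12.3%. On the phloem side (right) the 3 stems lie at 18.5%, 24.9% and 28.3%.

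Most of the young layer difference was also found in old stems. The old libraries entered the same fit, in its filter, scaling and dispersions, so they bore on which genes were called. Of the young outer-higher genes 87.9% had a positive log2 fold change in old stems, against 48.2% of all genes tested, and 64.7% were called there in the same direction. Of the young inner-higher genes 85.8% had a negative one, against 51.8% of all genes, and 60.4% were called. In old stems as a whole 18.8% of genes were outer-higher and 20.4% inner-higher. The genes called in the same direction at both ages were 64.0% of the old outer-higher list but 43.5% of the old inner-higher list, and 141 outer-higher and 100 inner-higher genes of young stems were called in the opposite layer in old stems. With each age fitted alone, which uses no old library for the young calls, 88.9% of the outer-higher and 85.2% of the inner-higher genes kept their sign in old stems, against 50% of all genes in each direction, over the 4247 of 4545 and 3826 of 4316 called genes that were tested at both ages. Without stem 1 of both ages, 87.1% and 81.3% had the same sign and 64.9% and 54.4% were called in old stems.

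The larger the young difference, the more often it was found again. Old stems called 91.1% of the genes at least 4-fold higher in young outer bark, 78.4% of those between 2-fold and 4-fold and 51.6% of those under 2-fold. On the inner side these shares were 81.3%, 72.0% and 55.7%. The 652 genes at least 4-fold higher in young outer bark had a median log2 difference of 1.23, 2.74, 2.79 and 2.33 in old stems 1 to 4, smallest in old stem 1. The 139 inner genes had medians of -0.895, -1.69, -1.88 and -2.30. Median levels of the outer group were 0.871, 4.01, 6.27 and 4.90 CPM in old outer stems 1 to 4. In old inner stems 1 to 4 they were 0.251, 0.384, 0.680 and 0.796 CPM. Both layers of old stem 1 were thus near the floor for this group, and its smaller difference was weakly measured. The outer group was higher in the outer library for 91.1%, 97.7%, 98.6% and 98.2% of its genes in old stems 1 to 4. Of the inner group 34.5%, 17.3%, 5.76% and 5.04% were higher in the outer library, against the young direction, so fewer followed it in old stems 1 and 2. This group was near the floor in old stems, with median levels of 0.251, 1.23, 1.59 and 1.84 CPM in inner stems 1 to 4. In outer stems 1 to 4 the medians were 0.0697, 0.213, 0.365 and 0.288 CPM. Few counts lie behind such values, so direction and size were weakly measured, most of all in old stem 1.

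**Figure D5:**
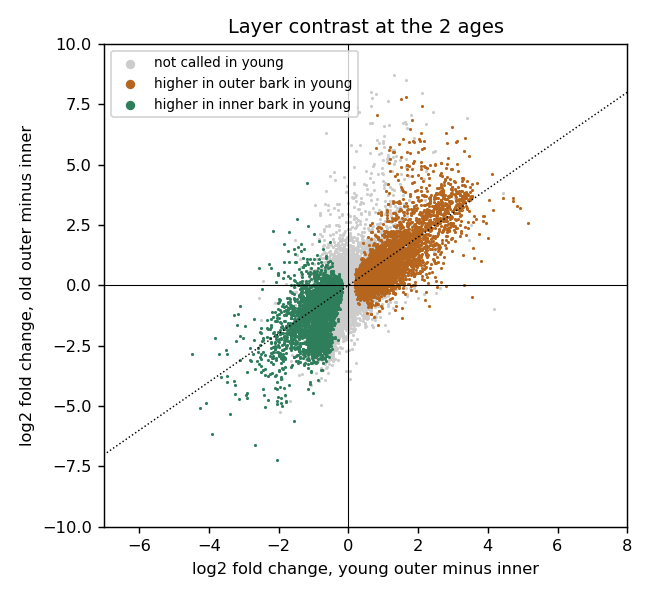
Each point is a gene, with its fitted log2 fold change of outer minus inner bark in young stems on the horizontal and in old stems on the vertical axis; the dotted line marks equal values. Genes called outer-higher in young stems (brown) lie above 0 in old stems for 87.9%, and genes called inner-higher (green) below 0 for 85.8%.

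In old stems the young outer-higher genes made up 29.7% ± 3.88 of outer and 21.7% ± 1.80 of inner counts, and the young inner-higher genes 13.4% ± 2.43 and 17.8% ± 1.72 (SD, n = 4 each). Both differences had the same direction in all 4 old stems, with an exact permutation p of 0.125 over sign changes within stems (two-sided), the smallest that 4 pairs allow.

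The layer contrast itself changed with age for 2840 genes, 10.3% of those tested (edgeR test of the old minus the young contrast, stems as blocks). Among the young outer-higher genes 543 differed more between the layers in young and 139 more in old stems, and 360 of the 543 were not called in old stems. Among the young inner-higher genes 397 differed more in young stems, of which 279 were not called in old stems, and 615 differed more in old stems. Choosing genes by their young difference favours larger young values. The inner-higher split rested on the scaling, with 572 and 557 genes under RLE factors, and on young stem 1, without which it was 591 and 424, although it was 402 and 595 without old stem 1 and 520 and 595 without stem 1 of both ages. Of the genes at least 4-fold apart in young stems, 11 of 652 outer and 11 of 139 inner genes had a changed contrast, beside 10.3% of all genes tested. The whole count was 781 without young stem 2, 896 without young stem 4, 1283 without old stem 2, and 0 with stems unpaired (edgeR; 1226 genes had an unadjusted p below 0.05, and DESeq2 was run with the block only).

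The young phloem-side genes were also lower in old stems in both layers. From young to old stems their mean log2 CPM fell by 0.996 in outer bark and fell by 0.927 in inner bark (medians over genes), and 87.6% and 87.9% of them were lower in old stems, against 52.2% and 49.8% of all genes tested. The young cork-side genes had medians of 0.30 and 0.475 in the other direction, and 34.9% and 30.2% of them were lower in old stems. The 652 genes at least 4-fold higher in young outer bark had medians of -0.699 in outer and -0.411 in inner bark, but of -0.148 and 0.263 without stem 1 of both ages. Without stem 1 the phloem-side medians were -0.988 and -1.04. Old minus young differences lie between stems and are given as values with no test.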

How the data were processed

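Read counts by gene, not normalized, were deposited by the authors for 14 libraries. Tables of their own layer comparisons give, per the file headers, the log2 fold change, log2 CPM, p-values and adjusted p-values of DESeq and edgeR, and normalized counts rounded to whole numbers (a score not used here). TopHat with Bowtie, HTSeq, Cufflinks, Trimmomatic, CASAVA, edgeR and DESeq are listed in the submitters' processing notes without a role, and the sources used here give no genome build. Strand was not kept, per the labels' protocols, so a gene and an overlapping antisense gene share reads, and counting may have divided reads among near-identical copies. Raw count columns of the young comparison table equalled the count table in 100% of values, and 0 per-sample columns were left without a sample.

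Genes were filtered with filterByExpr, which removed 13662. After TMM scaling, counts were fitted with edgeR 4.0.16 (R 4.3.3), quasi-likelihood F test with robust dispersions, over all 14 libraries, with each numbered stem as a block and a layer effect within each age (5 residual degrees of freedom). P-values were adjusted by Benjamini-Hochberg over the 27673 genes, threshold 0.05. Log2 CPM used a prior count of 2. The SE of a fitted log2 fold change was derived from the test, as its absolute size over the square root of the F statistic. The pairing follows the stem numbers in the titles: deviations of a stem's outer and inner library from their group means correlated at 0.823, 0.739 and 0.76 for young stems 1, 2 and 4, and at 0.596 or more for the old stems. Titles also open with a running number, consecutive within every pair except young stem 4, whose libraries were paired by the stem number alone. The labels do not say that stem numbers are separate trees, so the spread behind the p-values may be technical. Libraries of a group differed by at least 17.4 times sampling noise (chi-square over its degrees of freedom). Alternatives were no block, RLE factors, limma 3.58.1 (voom), DESeq2 1.42.0, a stricter and no count filter, the young libraries alone and leaving out each stem; leaving out stem 1 of both ages and fitting each age alone were added after seeing the data.

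The comparison, lists and tests were chosen with earlier results of these data known. The gene lists and cell type markers were defined by gene names, which no file pairs with identifiers, so they could not be filled and gave no result. Named genes had an adjusted p below 0.05, a mean log2 CPM of at least 3, the same direction in 3 of 3 young stems and no overlap between layers; the 2 with the largest fold change per direction were taken.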

Additional observations from a re-analysis of the deposited data

Results flagged for a closer look

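The layer contrast differed between ages for 2840 genes by a test of the difference itself. Old outer replicate 4 held Potri.016G104300 at 4.107 CPM, far from the other 3 old outer libraries, which had 0.557 to 0.780 CPM. It was the 1 value found apart among 12 sets of 4 old libraries examined, and chance alone flags about 1 set in 20, and groups of 3 young libraries were too small for this rule. A value not flagged can still lie far from its group. Old outer stem 1 held Potri.009G069100 at 1.67 CPM, against 82.2 to 122.7 CPM in the other old outer stems. It held Potri.007G113900 at 0.697 CPM, against 22.4 to 84.7 CPM.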

How the results depend on the processing

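With no replicate block the counts were 90 outer-higher, 17 inner-higher and 0 age-dependent genes, and with the young libraries alone and unpaired they were 0 and 0 (unadjusted p below 0.05 for 5265 genes). Leaving out single stems gave 2855 to 5149 outer-higher, 1706 to 4857 inner-higher and 781 to 2961 age-dependent genes. The share of young calls with the same sign in old stems, 87.0% over both directions, was 100% without the block, 88.3% under DESeq2, 85.9% under limma and 84.4% without stem 1 of both ages, and between 84% and 94% without single stems. The old difference in the share of counts, 8.01 and -4.45 percentage points for the outer-higher and inner-higher genes, was 0.349 and -0.0406 without the block, where fewer genes were called, and ran from 6.63 to 7.97 and from -5.42 to -2.35 without single stems. The split of age-dependent genes into an old contrast shifted towards inner and towards outer bark was 1934 and 906, and 1553 and 1334 under RLE factors. The named genes kept their direction under every alternative run. Their calls were lost without the block and in the unpaired young libraries, and those of the 2 outer genes also in the paired young libraries alone. Beyond the construction of these alternatives the cause was not tested. With 3 stems, exact permutations within stems could not go below 0.25.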
